A study of Mus musculus with 6 samples.

Results

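The genes described here are 10 host genes of small nucleolar RNAs (snoRNAs) known as long non-coding RNAs, although GENCODE M21 types Snhg11 as protein coding: Gas5, 1500012F01Rik (Zfas1 in GENCODE M21), Epb41l4aos, Snhg1, Snhg3, Snhg5, Snhg6, Snhg8, Snhg11 and Snhg12. Of the 10, 9 had a value among the 46072 genes in the tables of the single libraries, and 8 had one among the 44382 entries in the table of the whole series. Snhg1 had an entry in neither, and Snhg3 had none in the series table, so that Snhg1 is described only through the snoRNAs in its introns.

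The libraries came from RNA immunoprecipitation and sequencing (RIP-seq) with an antibody against EZH2 or with normal IgG, in the left ventricles of male mice at the age of 10 weeks. The Sham group was saline infused by the study's methods and untreated by its labels, and the other groups, AngII 4 h and AngII 24 h, received angiotensin II at 1 mg/kg/min from an osmotic minipump for the time in their name. The labelled strain was C57BL/6, except that the anti-EZH2 libraries of AngII 4 h and AngII 24 h carried C57BL/7 and C57BL/8. The unit of the dose and these strain names are given as the sources have them and may be errors of entry. Each group held 2 mice, and the products of 2 precipitations were mixed into a single library, so that each group had 1 anti-EZH2 and 1 IgG library, with no replicates and no test between groups.

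EZH2 is the catalytic subunit of Polycomb repressive complex 2, which methylates histone H3 at lysine 27 and binds many RNAs in the nucleus. In a snoRNA host gene the introns carry the snoRNAs, which are released after splicing and guide or assist the modification and cleavage of ribosomal RNA. The spliced exons of such hosts are often short lived, since many have no long reading frame and are degraded by nonsense-mediated decay when they are translated, so that the exons and the intronic snoRNAs of 1 gene can reach very different levels.

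The AngII 24 h anti-EZH2 library stood apart from the others. Mitochondrial genes held 31.3% of its FPKM, against 6.72% in AngII 4 h anti-EZH2, which was the lowest, and at most 13.9% in the other 5 libraries. It also held the fewest reads on snoRNAs, 2556 in all against between 4960 and 7885 in the other libraries. Each anti-EZH2 value and each ratio at 24 h rests on this library, and its part in them was not tested. The values of Sham and AngII 4 h are those without it.

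The labelled tissue was checked against markers of cell types. Here and below, 3 values for an antibody stand in the order Sham, AngII 4 h, AngII 24 h. All 6 markers of ventricular cardiomyocytes were found, and their summed FPKM was 6844, 9312 and 8282 with IgG and 5259, 8337 and 5511 with anti-EZH2, with Myl2, the ventricular regulatory light chain of myosin, as the most abundant. The 4 atrial markers summed to 44.0, 11.7 and 5.69 in IgG and to 29.6, 11.1 and 5.36 in anti-EZH2. Atrial markers were therefore higher in both Sham libraries than in the 4 libraries after AngII, with Nppa, the gene of atrial natriuretic peptide, as the most abundant in Sham IgG, Sln at 0 in all 6 libraries and Myl7 at 0 in both libraries of AngII 24 h. Their part in any difference between Sham and AngII given here was not tested. In whole ventricle, fewer cells of a type and less RNA per cell cannot be told apart.

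The values are FPKM, which count fragments against the length of a transcript and the depth of a library, as the authors deposited them for each single library, and the ratio of a group is the FPKM of its anti-EZH2 library over that of its IgG library. No pseudocount was added, and a host or other gene at 0 FPKM in 1 of the libraries was given no ratio. Libraries also differed as a whole. Over 4034 protein-coding genes that passed 1 FPKM in each of the 6 libraries, the median ratio was 0.797 in Sham, 0.907 in AngII 4 h and 0.673 in AngII 24 h, or -0.33, -0.14 and -0.57 on the log2 scale. The ratio of a member is to be read against these values.

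The hosts themselves were low. Gas5, a growth arrest transcript known to bind the glucocorticoid receptor, had the highest FPKM of the 9 measured members in all 6 libraries, with a median of 6.59 over libraries. It was followed by Snhg8 at 1.92, 1500012F01Rik at 1.44 and Snhg12 at 1.09, then by Snhg3 at 0.425, Epb41l4aos at 0.385, Snhg6 at 0.351 and Snhg11 at 0.271, and Snhg5 had a median of 0. The range over libraries was 3.69 to 10.4 for Gas5, 0 to 3.76 for Snhg8, 0.516 to 3.83 for 1500012F01Rik and 0 to 2.63 for Snhg12, so that only the place of Gas5 at the head of this order held in each library. Gas5, 1500012F01Rik and Snhg11 were above 0 in all 6 libraries, Snhg8 and Snhg12 in 5, Epb41l4aos, Snhg3 and Snhg6 in 3, and Snhg5 in 2.

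Summed over the 9 hosts, the FPKM was 21.9 in Sham IgG, 11.6 in AngII 4 h IgG and 18.2 in AngII 24 h IgG, and 9.75, 14.8 and 10.0 with anti-EZH2. The sum was thus higher with IgG in Sham and AngII 24 h, and higher with anti-EZH2 in AngII 4 h. The last rests on Gas5. Without it, left out after seeing the data, the other 8 hosts summed to 12.1, 7.90 and 11.5 with IgG and to 5.39, 4.44 and 3.57 with anti-EZH2, higher with IgG in each group. Above 0 were 7, 7 and 7 members in IgG and 7, 6 and 5 in anti-EZH2, and above 1 FPKM were 5, 4 and 6 in IgG and 3, 3 and 2 in anti-EZH2. For a transcript of 500 nt, a single read was worth 0.777 FPKM in Sham IgG and 0.424 in AngII 4 h anti-EZH2, so that most of the host values stood for few reads.

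**Figure D1:**
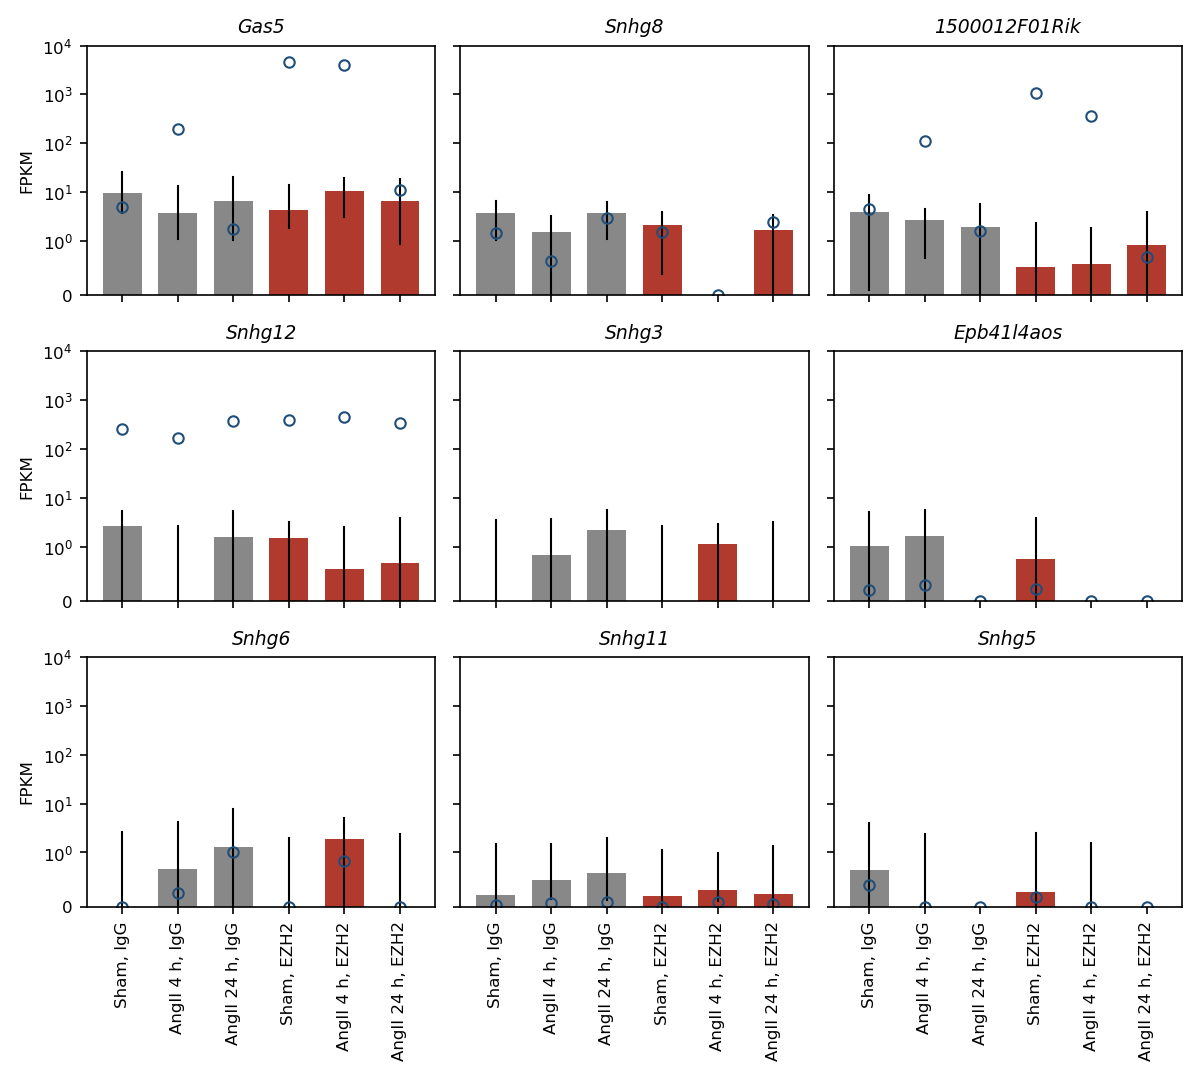
FPKM of the 9 measured members in each library, from the tables of single libraries (bars, with the interval given there as a line; grey IgG, red anti-EZH2) and from the series table (open circles). The axis is linear below 1 and logarithmic above, and Snhg3 had no entry in the series table.

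Gas5 was at 9.74, 3.69 and 6.73 FPKM with IgG and at 4.36, 10.4 and 6.45 with anti-EZH2. It was high with IgG and low with anti-EZH2 in Sham, low with IgG and high with anti-EZH2 in AngII 4 h, and nearly equal with both in AngII 24 h. The ratio was 0.447 in Sham, 2.81 in AngII 4 h and 0.958 in AngII 24 h, or 0.561, 3.10 and 1.42 after division by the median of protein-coding genes. The intervals given in the tables ran in Sham from 3.68 to 25.6 for IgG and from 1.84 to 13.7 for anti-EZH2, and in AngII 4 h from 1.10 to 13.4 and from 3.13 to 19.5. They overlapped in each group, so that the values of the antibodies cannot be told apart. They cover only the error of counting reads and of assigning them to transcripts, not the spread between mice or precipitations.

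1500012F01Rik is the host of the Snord12 family and lies next to Znfx1 on the opposite strand. It was at 3.83, 2.63 and 1.96 FPKM in IgG and at 0.516, 0.578 and 0.925 in anti-EZH2. Here every IgG library was above every anti-EZH2 library. The ratio was 0.135 in Sham, 0.220 in AngII 4 h and 0.471 in AngII 24 h, the lowest ratio of any member in the first 2 groups, and it lay below 1 after division by the median of protein-coding genes as well, at 0.169, 0.242 and 0.699. The intervals overlapped in each group.

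Snhg8, the host of Snora24, was at 3.76, 1.55 and 3.74 FPKM in IgG and at 2.14, 0 and 1.70 in anti-EZH2. It was lowest with both antibodies in AngII 4 h, and lower with anti-EZH2 than with IgG in each group. Its ratio was 0.569 in Sham and 0.455 in AngII 24 h. Snhg12, which carries mainly H/ACA snoRNAs, was at 2.63, 0 and 1.62 in IgG and at 1.48, 0.583 and 0.707 in anti-EZH2, with a ratio of 0.564 in Sham and 0.438 in AngII 24 h. Both hosts thus had ratios below 1 in Sham and AngII 24 h, and neither had a ratio in AngII 4 h, where 1 of the libraries was at 0.

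The remaining members were at or below 2.20 FPKM. Snhg3, the host of the U17 snoRNAs, was at 0, 0.851 and 2.20 in IgG and at 0, 1.12 and 0 in anti-EZH2. Snhg6, the host of Snord87, was at 0, 0.703 and 1.32 in IgG and at 0, 1.85 and 0 in anti-EZH2. Both were at 0 in the Sham libraries and in AngII 24 h anti-EZH2, and they had a ratio in AngII 4 h only, 1.32 for Snhg3 and 2.63 for Snhg6. Epb41l4aos was at 1.01, 1.67 and 0 in IgG and 0.770, 0 and 0 in anti-EZH2, and Snhg5, the host of the U50 snoRNAs, was at 0.679 in Sham IgG, 0.277 with anti-EZH2 in Sham and 0 elsewhere. Their ratios existed in Sham only and were 0.759 and 0.409.

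Snhg11 is a transcript known mainly from neurons. It was at 0.210, 0.493 and 0.628 FPKM in IgG and at 0.207, 0.312 and 0.231 in anti-EZH2, so that it was lowest in the Sham library of each antibody. Its ratio was 0.988, 0.633 and 0.367. The 4 neuronal markers, all found, summed to 3.29, 1.57 and 0.603 in IgG and to 0.152, 0.464 and 0.593 in anti-EZH2. Snap25 was their most abundant gene in Sham IgG, at 2.66, and was at 0 in Sham anti-EZH2. With IgG their sum was lower after AngII than in Sham while Snhg11 was higher, but Stmn2, at 0.247, 0.305 and 0.280, was higher too, and their part in the level of Snhg11 was not tested.

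Counted over members, 0 of 7 had a ratio above 2 in Sham and 3 of 7 had one below 0.5 (Gas5, 1500012F01Rik and Snhg5), where 16.3% and 22.2% of all genes with a ratio passed these thresholds. In AngII 4 h, 2 of 5 were above 2 (Gas5 and Snhg6) and 1 of 5 below 0.5 (1500012F01Rik), against 14.8% and 16.3% of all genes. In AngII 24 h, 0 of 5 were above 2 and 4 of 5 below 0.5 (1500012F01Rik, Snhg8, Snhg11 and Snhg12), against 11.3% and 33.2%. The median ratio of the members was 0.564 in Sham, 1.32 in AngII 4 h and 0.455 in AngII 24 h, beside 0.836, 0.939 and 0.686 for all genes. All 7 members with a ratio in Sham and all 5 in AngII 24 h were below 1, as were 59% and 70.1% of all genes, and 2 of 5 were in AngII 4 h, against 55%. After division by the median of protein-coding genes 1 of 7 was below 0.5 in Sham and 0 of 5 in AngII 24 h, beside 16% and 18.4% of all genes, and for no member did the intervals of the antibodies lie apart in a group.

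Set against Sham with the same antibody, Gas5 was lower in AngII 4 h with IgG (0.379-fold) and higher with anti-EZH2 (2.38-fold), while in AngII 24 h it was at 0.690-fold with IgG and 1.48-fold with anti-EZH2. Snhg8 was at 0.412-fold and 0.995-fold of Sham with IgG and at 0.795-fold in AngII 24 h with anti-EZH2. Snhg11 was at 2.35-fold and 3.00-fold with IgG and at 1.51-fold and 1.11-fold with anti-EZH2. Snhg12 was at 0.615-fold in AngII 24 h with IgG and at 0.394-fold and 0.478-fold with anti-EZH2, and 1500012F01Rik was between 0.512-fold and 1.79-fold in these tables. Of the members with a fold for both antibodies, none thus moved past 2-fold in the same direction with both. Snhg8 and Snhg12 were lower in AngII 4 h than in Sham with both antibodies, but each was at 0 in 1 of the libraries and had no fold there. Epb41l4aos was at 1.65-fold in AngII 4 h with IgG and fell to 0 there with anti-EZH2. Where no fold could be given, Snhg5 was lower with both antibodies in AngII 4 h and AngII 24 h and Epb41l4aos in AngII 24 h, each at 0 there, and Snhg3 and Snhg6 were higher with both in AngII 4 h, from 0 in Sham. Intervals of the tables overlapped for each pair with an FPKM above 0 in both libraries. Among the pairs with a 0, they lay apart for Snhg8 with anti-EZH2 in AngII 4 h, at 0.391 to 3.88 in Sham against 0 to 0, an interval without width.

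With IgG, 1 of 5 members was over 2-fold higher in AngII 4 h than in Sham (Snhg11) and 2 of 5 were over 2-fold lower (Gas5 and Snhg8), beside 20.2% and 16.1% of all genes. In AngII 24 h, 1 of 5 was higher (Snhg11) and 0 of 5 lower, beside 22.8% and 14% of all genes. With anti-EZH2, 1 of 4 was higher in AngII 4 h (Gas5) and 1 of 4 lower (Snhg12), beside 22.9% and 15.2%, and 0 of 5 were higher and 1 of 5 lower (Snhg12) in AngII 24 h, beside 16.5% and 23.5%. The median fold of the members was 0.686 and 0.690 with IgG and 1.31 and 1.11 with anti-EZH2, and that of all genes was 1.11 and 1.13 with IgG and 1.21 and 0.935 with anti-EZH2. After division by the median fold of protein-coding genes, Gas5 was at 1.76-fold in AngII 4 h with anti-EZH2 and Snhg11 at 1.96-fold with IgG. Neither thus passed 2-fold. In AngII 24 h with IgG, Snhg11 still passed it at 2.47-fold, and 1500012F01Rik, within 2-fold before, was at 0.423-fold. There 1 of 5 was higher and 1 of 5 lower, beside 16.2% and 20% of all genes.

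In the series table, 3 hosts had levels that the tables of single libraries did not hold. Gas5 was listed there at 5.06, 199 and 1.79 FPKM in IgG and at 4635, 3994 and 11.2 in anti-EZH2, 1500012F01Rik at 4.53, 112 and 1.61 in IgG and at 1071, 360 and 0.701 in anti-EZH2, and Snhg12 at 251, 169 and 379 in IgG and at 401, 448 and 345 in anti-EZH2. The other 5 hosts with an entry stayed at or below 2.99 in each library. For Gas5 and 1500012F01Rik the high libraries were AngII 4 h IgG and the anti-EZH2 libraries of Sham and AngII 4 h, whereas Snhg12 was high in all 6.

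The series table also left many of the intronic snoRNAs without an entry of their own, 22 of 35. The 10 snoRNAs of Gas5, none with such an entry, summed to 399, 223 and 519 FPKM in IgG and to 3633, 1972 and 0 in anti-EZH2 in the tables of single libraries, and the 3 of 1500012F01Rik, also without an entry, to 0, 241 and 0 in IgG and to 877, 469 and 0 in anti-EZH2. Of the 5 in Snhg12, 4 had no entry, and these summed to 534, 366 and 541 in IgG and to 807, 736 and 335 in anti-EZH2. For 1500012F01Rik the host was thus high in the series table in the 3 libraries where these snoRNAs were above 0, and for Gas5 this held in 3 of the 5 libraries with such reads. For Snhg12 both were above 0 in all 6 libraries, so that no library could set them apart. Snhg8 and Snhg5 went another way. Snora24 reached 109 FPKM and the Snord50 genes 739 FPKM without a series entry, while the series values of these hosts stayed at or below 2.99 and 0.403. How the series table was summed over transcripts is not given in the sources used here, and the part of the snoRNAs in its host values was not tested.

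The ratios differed between the tables. In the series table the ratio of Gas5 was 916 in Sham, 20.04 in AngII 4 h and 6.25 in AngII 24 h, that of 1500012F01Rik was 236, 3.21 and 0.435, and that of Snhg12 was 1.60, 2.66 and 0.911. The ratio of Snhg8 was 1.03 in Sham and 0.803 in AngII 24 h, that of Epb41l4aos was 1.08 in Sham, and that of Snhg6 was 3.43 in AngII 4 h. Gas5, 1500012F01Rik, Snhg12, Snhg8 and Epb41l4aos thus lay on opposite sides of 1 in Sham in the 2 forms of table, and only Snhg5, of the 6 members with both ratios, did not. In AngII 4 h this held for 1500012F01Rik and Snhg11, the latter at 1.22 in the series table, and in AngII 24 h for Gas5. Above 2 in the series table were 2 of 6 members in Sham (Gas5 and 1500012F01Rik), 4 of 5 in AngII 4 h (with Snhg12 and Snhg6) and 1 of 5 in AngII 24 h (Gas5), beside 19.1%, 19.2% and 22.5% of all entries with a ratio. Below 0.5 were 1 of 6, 0 of 5 and 1 of 5, beside 16.2%, 12% and 16.9%. The folds from Sham differed as well. In AngII 4 h and AngII 24 h, Gas5 was there at 39.4-fold and 0.354-fold with IgG and at 0.862-fold and 0.00241-fold with anti-EZH2, and 1500012F01Rik at 24.7-fold and 0.356-fold with IgG and at 0.336-fold and 0.000655-fold with anti-EZH2. There, 3 of 6 members were over 2-fold higher and 1 of 6 lower in AngII 4 h than in Sham with IgG, beside 11.9% and 23% of all entries, and 2 of 5 were higher and 2 of 5 lower in AngII 24 h, beside 33.3% and 14.3%. With anti-EZH2, 0 of 3 were higher and 1 of 3 lower in AngII 4 h, beside 13.4% and 20.6%, and 0 of 4 higher and 2 of 4 lower in AngII 24 h, beside 36.2% and 14.8%.

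GENCODE M21 places 35 snoRNA genes within the 10 hosts on the same strand, 10 in Gas5, 8 in Snhg1, 5 in Snhg12, 3 in 1500012F01Rik, 2 each in Snhg3, Snhg5 and Snhg11, and 1 each in Epb41l4aos, Snhg6 and Snhg8. Every one of the 35 lay within an intron of at least 1 transcript of its host, and the tables of single libraries held all 35. By their letters 25 were C/D snoRNAs, which guide methylation of ribose, and 8 were H/ACA snoRNAs, which guide the change of uridine to pseudouridine. For Snora44 and Gm25187 neither pattern was found. The median distance from the end of the snoRNA to the 3′ splice site of its intron was 73 nt for C/D and 84 nt for H/ACA. This distance ranged from 65 to 314 nt for the C/D snoRNAs and from 74 to 1104 nt for the H/ACA snoRNAs.

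Levels of such short genes are best read as reads. In Sham IgG a single read was worth 232 FPKM for a gene of 80 nt, 40.8 FPKM for 126 nt and 7.26 FPKM for 205 nt, by a model of fragment length with a mean of 200 nt. Reads were recovered from FPKM by this model, rounded, and compared as reads relative to the fragments of the library. The exact 95% interval of the ratio covers counting error only. Of the 35 snoRNAs 20 were above 0 in at least 1 library and 15 were at 0 in all, and 3 of them held nearly all reads: Snord22 of Snhg1 and Snora73a and Snora73b of Snhg3. These 3 were singled out after their values were seen.

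Snord22 (U22), a C/D snoRNA that takes part in the cleavage of the precursor of 18S ribosomal RNA, lies at chr19:8725866-8725991 on the + strand within an intron of Snhg1 (chr19:8723475-8726443), and 75 nt before its 3′ splice site. By FPKM it ranked 1 among 1507 snoRNA genes in 5 libraries and 2 in AngII 24 h IgG. It had 711, 825 and 725 reads with IgG and 589, 1139 and 242 with anti-EZH2. The lowest library was AngII 24 h anti-EZH2. The most reads were in AngII 4 h anti-EZH2, which was also the deepest, and relative to depth the highest library was AngII 24 h IgG. The ratio was 0.629 (0.563 to 0.702) in Sham, 0.915 (0.836 to 1.00) in AngII 4 h and 0.267 (0.230 to 0.310) in AngII 24 h.

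Of the other 7 snoRNAs in Snhg1, Gm24453 and Gm22744 had 1 read each in Sham anti-EZH2, and the others were at 0 in all 6 libraries. The 7 are 65 to 76 nt long and Snord22 is 126 nt, so that with the same number of molecules far fewer fragments of a shorter snoRNA could enter these libraries. The levels within this host are therefore no measure of how much of each snoRNA the tissue held. Snord22 is shown as the most abundant snoRNA of the members, with the 7 letters of the C box and the 4 letters of the D box in capitals. Sequences are from GENCODE M21 transcripts on GRCm38, in the 5′ to 3′ direction.
Snord22: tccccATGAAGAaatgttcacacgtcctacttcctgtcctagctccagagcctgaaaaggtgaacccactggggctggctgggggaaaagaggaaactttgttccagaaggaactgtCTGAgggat

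Snhg3 carries Snora73b at chr4:132352322-132352526 and Snora73a at chr4:132352775-132352979, both on the - strand and in separate introns of the host (chr4:132348014-132353686). They are the U17 snoRNAs, which also act in the maturation of 18S ribosomal RNA. Snora73b had 525, 718 and 711 reads in IgG and 450, 861 and 282 in anti-EZH2, and Snora73a had 390, 509 and 474 in IgG and 356, 564 and 225 in anti-EZH2. Relative to depth, both were lowest in AngII 24 h anti-EZH2 and highest in AngII 24 h IgG, as Snord22 was. The ratio of Snora73b was 0.651 (0.572 to 0.739), 0.795 (0.719 to 0.879) and 0.318 (0.276 to 0.365), and that of Snora73a was 0.693 (0.599 to 0.802), 0.734 (0.650 to 0.829) and 0.380 (0.323 to 0.447).

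The host Snhg3 was at 0 FPKM in Sham with both antibodies while its snoRNAs held 915 and 806 reads there. Between the copies 198 of 205 bases are equal and 7 differ, of which 3 are the last bases of each. A read without a differing base could come from either, and how such reads were divided is not given in the sources used here. The copies are shown for these differences, which are in capitals.
Snora73a: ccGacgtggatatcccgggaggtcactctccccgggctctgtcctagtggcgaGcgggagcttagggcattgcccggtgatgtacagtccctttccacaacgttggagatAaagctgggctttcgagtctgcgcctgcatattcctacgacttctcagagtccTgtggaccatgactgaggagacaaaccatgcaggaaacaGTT
Snora73b: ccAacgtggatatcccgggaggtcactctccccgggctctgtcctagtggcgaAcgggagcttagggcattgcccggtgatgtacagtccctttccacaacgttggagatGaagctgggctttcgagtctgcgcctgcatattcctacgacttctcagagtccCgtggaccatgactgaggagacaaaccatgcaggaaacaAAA

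Snhg3 overlaps Rcc1, the exchange factor of the GTPase Ran, on the same strand. Rcc1, named after its values were seen, was at 0, 1.15 and 1.05 FPKM in IgG and at 0.704, 0.854 and 1.32 in anti-EZH2 in the tables of single libraries, but at 893, 823 and 3153 in IgG and at 784, 695 and 1782 in anti-EZH2 in the series table. It was thus near the other low genes in 1 form of table and among high values in the other, with its highest values in both libraries of AngII 24 h in the series table. Snhg3 and Snora73a had no series entry beside it. Over all libraries of the series table, Rcc1 was at 0.646 to 0.784 times the FPKM of Snora73b. The part of the snoRNAs in the series value of Rcc1 was not tested.

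Together the 35 snoRNAs held 1665, 2082 and 1941 reads in IgG and 1492, 2657 and 772 in anti-EZH2, which was 33.6%, 34.7%, 31.0%, 25.6%, 33.7% and 30.2% of all snoRNA reads. The share was lowest in Sham anti-EZH2, and in the library that stood apart it lay within the range of the others. The ratio over all 35 was 0.680 (0.634 to 0.730) in Sham, 0.846 (0.798 to 0.896) in AngII 4 h and 0.319 (0.293 to 0.347) in AngII 24 h, beside 0.891, 0.872 and 0.327 for the reads of all snoRNAs. Divided by the median of protein-coding genes the ratios were 0.853, 0.932 and 0.473. In AngII 24 h the low ratio was therefore shared with all snoRNAs. Its anti-EZH2 side rests on the library that stood apart, whose part in it was not tested. Relative to depth, the reads of the 35 in AngII 24 h were at 1.32-fold of Sham (1.24 to 1.41) with IgG and at 0.619-fold (0.567 to 0.676) with anti-EZH2. The median FPKM fold of protein-coding genes there was 1.213 with IgG and 1.011 with anti-EZH2.

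The 3 abundant snoRNAs held 97.7%, 98.6% and 98.5% of the members' snoRNA reads in IgG and 93.4%, 96.5% and 96.9% in anti-EZH2. The other 32 had 39, 29 and 30 reads in IgG and 98, 93 and 24 in anti-EZH2. They were thus higher with anti-EZH2 in Sham and AngII 4 h. The 3 abundant ones were lower in Sham, and in AngII 4 h Snora73a and Snora73b were, while the interval of Snord22 reached 1. Divided by the median of protein-coding genes, Snord22 was at 0.789, 1.01 and 0.397, Snora73b at 0.816, 0.876 and 0.472, and Snora73a at 0.869, 0.810 and 0.565. The other 32 together had a ratio of 1.91 (1.30 to 2.84) in Sham and 2.13 (1.39 to 3.35) in AngII 4 h. In AngII 24 h their ratio was 0.641 (0.359 to 1.13). Of these, the C/D snoRNAs had 2, 5 and 2 reads in IgG and 31, 16 and 0 in anti-EZH2, with a ratio of 11.8 (2.99 to 101) in Sham and 2.12 (0.742 to 7.40) in AngII 4 h. The snoRNAs read as H/ACA by their letters had 26, 17 and 21 in IgG and 53, 50 and 16 in anti-EZH2, with ratios of 1.55 (0.951 to 2.58), 1.95 (1.11 to 3.60) and 0.611 (0.298 to 1.23). Snora44, named as an H/ACA snoRNA but without the pattern, is in neither class. It had 11, 7 and 7 reads in IgG and 14, 27 and 8 in anti-EZH2, with ratios of 0.966 (0.408 to 2.35), 2.56 (1.09 to 6.95) and 0.916 (0.290 to 2.97).

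**Figure D2:**
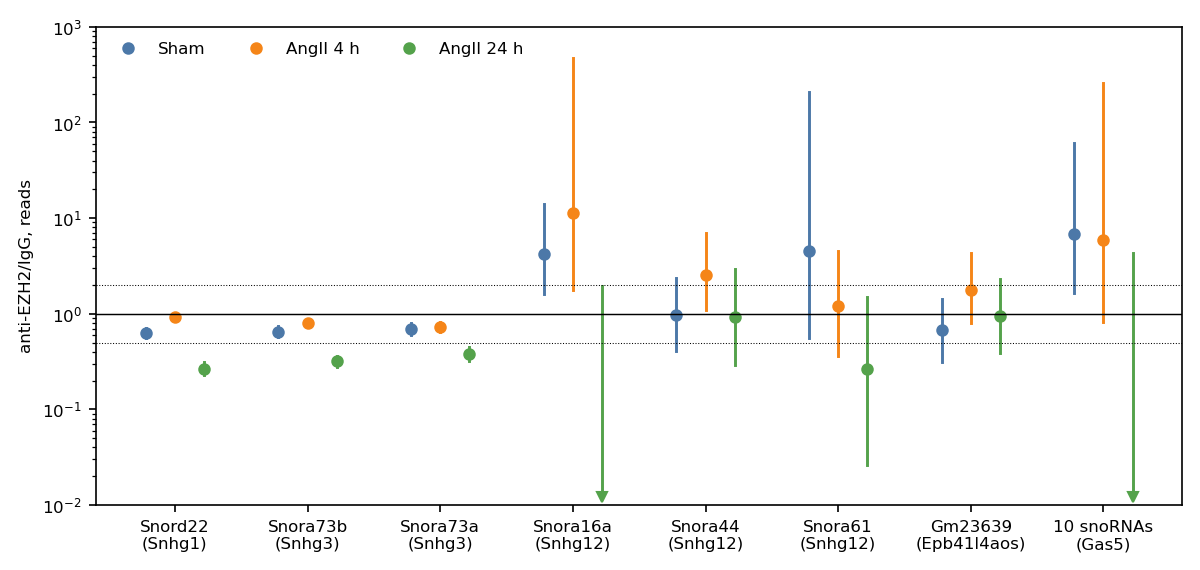
Anti-EZH2/IgG ratio of reads, each relative to the fragments of its library, with its exact 95% interval for the more abundant snoRNAs, with the host in brackets, and for the 10 snoRNAs of Gas5 together. Triangles stand for 0 reads with anti-EZH2, and dotted lines mark ratios of 0.5 and 2.

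All 10 snoRNAs of Gas5 are C/D snoRNAs, and together they had 2, 1 and 2 reads in IgG and 18, 9 and 0 in anti-EZH2, rounded after summing, so that the rounded counts of single loci can add to 1 more. They were high in the anti-EZH2 libraries of Sham and AngII 4 h and near 0 in the other 4 libraries. The ratio was 6.83 (1.64 to 60.7) in Sham and 5.96 (0.826 to 261) in AngII 4 h. The entry of the host stood at 0.447 in Sham, with bounds from the tables of 0.0720 to 3.72 that hold 1, and at 916 in the series table, so that no difference in direction between the host and its snoRNAs is shown. Its value is taken over all transcripts, some with exons over the snoRNAs, and is not one of spliced exons alone. With anti-EZH2 the reads of the snoRNAs in AngII 4 h were at 0.360-fold of Sham (0.142 to 0.843). The host was at 2.38-fold, with bounds of 0.228 to 10.6 that overlap these, and at 0.862-fold in the series table.

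Within Gas5 (chr1:161034422-161038539, + strand, 25 annotated transcripts of up to 12 exons), the reads lay on a few snoRNAs. Snord47 (chr1:161038082-161038158) had 0, 1 and 1 reads in IgG and 9, 4 and 0 in anti-EZH2, and the overlapping genes Snord80 (chr1:161037601-161037681) and SNORD77 together had 0, 0 and 0 in IgG and 7, 1 and 0 in anti-EZH2. Gm22357 had 2, 0 and 1 in IgG and 3, 1 and 0 in anti-EZH2, and Gm22489 had 3 reads in AngII 4 h anti-EZH2 only. Gm26224, Gm23212, Snord78, Mir5117 (typed as a snoRNA in GENCODE M21) and Gm25789 were at 0 in all 6 libraries. The highest counts were thus those of Snord47 and Snord80/SNORD77 in Sham anti-EZH2, in introns toward the 3′ end of the host. SNORD77 lies within Snord80, and the tables gave it 7.74 reads over the 6 libraries, before rounding, and Snord80 itself 0.0424. The sequences of Snord47 and of Snord80, for the whole of that locus, are shown since these loci carry most of the Gas5 intron reads, with the letters of the C box and the D box in capitals.
Snord47: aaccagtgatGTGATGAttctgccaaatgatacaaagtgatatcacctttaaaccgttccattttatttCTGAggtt
Snord80: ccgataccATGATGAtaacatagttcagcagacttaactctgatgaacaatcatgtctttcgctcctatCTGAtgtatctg

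**Figure D3:**
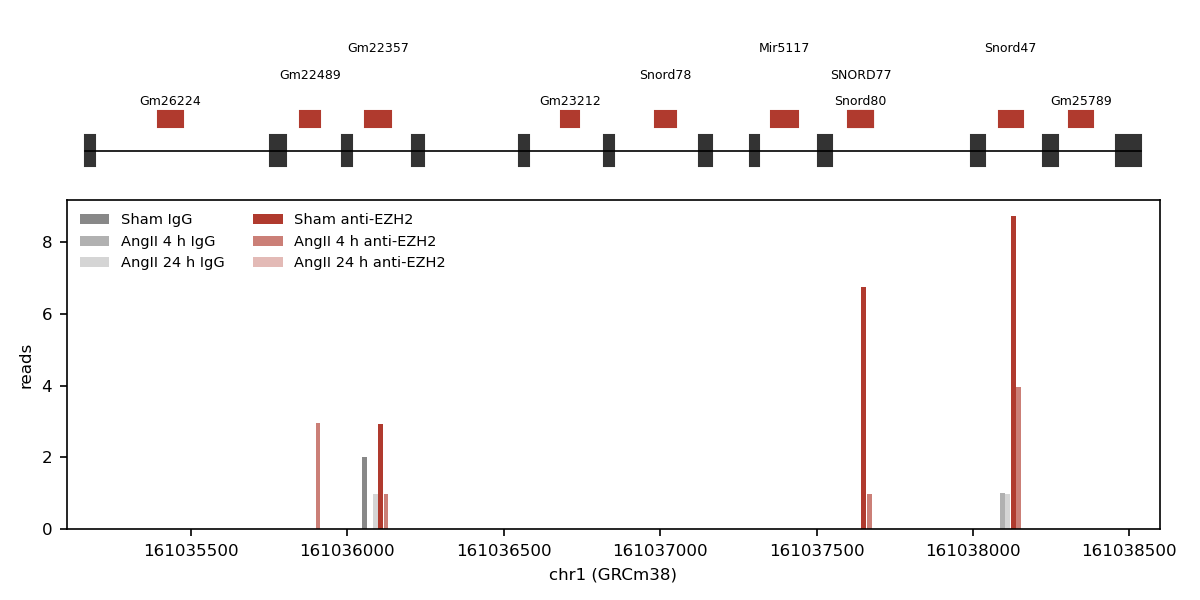
The Gas5 gene with the 12 exons of 1 annotated transcript (black) and its 10 intronic snoRNAs (red), above the reads recovered for each snoRNA in the 6 libraries (grey IgG, red anti-EZH2; paler with time after AngII). Reads are drawn before rounding, and a snoRNA without bars had 0 reads in all libraries.

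The 5 snoRNAs of Snhg12 (chr4:132308623-132311024, + strand) had 17, 13 and 16 reads in IgG and 49, 53 and 10 in anti-EZH2. They were higher with anti-EZH2 in Sham and AngII 4 h and lower in AngII 24 h, and the ratio was 2.19 (1.24 to 4.05), 2.70 (1.45 to 5.40) and 0.501 (0.203 to 1.17). In Sham most of the difference lay in the locus of Snora16a (chr4:132309465-132309600) and the gene snopsi28S-3327 that covers the same bases, which together had 5, 1 and 3 reads in IgG and 28, 17 and 0 in anti-EZH2, with ratios of 4.25 (1.62 to 14.1) in Sham and 11.3 (1.77 to 471) in AngII 4 h. Snora44 had 11, 7 and 7 in IgG and 14, 27 and 8 in anti-EZH2, and Snora61 had 1, 5 and 6 in IgG and 6, 9 and 2 in anti-EZH2. Snora44 was thus highest in AngII 4 h anti-EZH2, and the Snora16a locus in Sham anti-EZH2. There the tables gave 27.6 reads, before rounding, to snopsi28S-3327 and 0.125 to Snora16a itself, which as its own entry was highest in Sham IgG, at 2.98. The host Snhg12 was at 0.564 in Sham, with an interval that had no upper bound, and at 1.60 in the series table. The sequence of Snora16a is shown for the locus of this host whose interval lay above 1 in both Sham and AngII 4 h, with the ACA letters before its 3′ end in capitals.
Snora16a: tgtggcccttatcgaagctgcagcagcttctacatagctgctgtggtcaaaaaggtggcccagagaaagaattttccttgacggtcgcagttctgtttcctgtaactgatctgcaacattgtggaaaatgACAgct

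In 1500012F01Rik (chr2:167062934-167065862, + strand), Snord12 and Gm23201 each had 0, 1 and 0 reads in IgG and 4, 3 and 0 in anti-EZH2, and Gm25878 was at 0 in all 6 libraries. In Sham they had 0 reads with IgG and 8 with anti-EZH2, where the lower bound of the ratio was 1.30, and 2 and 6 reads in AngII 4 h, a ratio of 1.99 (0.355 to 20.1). They were detected with anti-EZH2 in the same groups as the snoRNAs of Gas5. The host was at 0.135 in Sham, with bounds from 0 to 23.7, and at 236 in the series table, so that here, too, no difference in direction is shown.

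The H/ACA snoRNA of Epb41l4aos, Gm23639, had 17, 9 and 11 reads in IgG and 15, 24 and 13 in anti-EZH2. Relative to depth it was highest in the IgG library of Sham and lowest in that of AngII 4 h, and the ratio was 0.670 (0.312 to 1.43), 1.77 (0.793 to 4.32) and 0.947 (0.391 to 2.33), with intervals that held 1 in each group. Snora24 of Snhg8 had 3, 2 and 1 in IgG and 4, 0 and 1 in anti-EZH2. Snord50a of Snhg5 had 2 reads in AngII 4 h IgG and 2 in Sham anti-EZH2, and Snord87 of Snhg6 had 1 read in AngII 4 h anti-EZH2. The snoRNAs of Snhg11, Gm25187 and Gm25129, were at 0 in all 6 libraries. These hosts thus gave few intron reads with either antibody, apart from Epb41l4aos.

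Among snoRNA loci with at least 5 reads in a group, 4 of 11 of the members had a ratio above 2 in Sham and 0 below 0.5, beside 33.6% and 6.72% of 119 snoRNAs in all. Here a locus at 0 reads with IgG was counted as above 2, as were 2 of the 4, Snord47 and Snord80/SNORD77. With reads in both libraries, a condition added after seeing the data, 2 of 9 were above 2, beside 27.8% of 108. In AngII 4 h, 3 of 8 were above 2 and 0 below 0.5, beside 30.6% and 9.26% of 108. In AngII 24 h, 0 of 6 were above 2 and 4 of 6 below 0.5, beside 3.3% and 69.2% of 91. The members' snoRNAs thus passed these thresholds about as often as snoRNAs at large, though the counts were not made alike. The members were counted as loci with rounded reads. The snoRNAs at large were counted as single genes with reads before rounding, and the members are among them. The median ratio over all such snoRNAs was 1.15, 1.23 and 0.345.

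Set against Sham, Snord22 was at 0.956-fold (0.864 to 1.06) in AngII 4 h and 1.16-fold (1.04 to 1.28) in AngII 24 h with IgG, and at 1.39-fold (1.26 to 1.54) and 0.492-fold (0.422 to 0.572) with anti-EZH2. Snora73b was at 1.13-fold (1.01 to 1.26) and 1.54-fold (1.37 to 1.72) with IgG and at 1.38-fold (1.23 to 1.55) and 0.750-fold (0.644 to 0.873) with anti-EZH2. The median FPKM fold of protein-coding genes, in the same order, was 1.202 and 1.213 with IgG and 1.352 and 1.011 with anti-EZH2. Both intervals in AngII 4 h with anti-EZH2 held this median, so that no rise beyond it is shown there. With IgG, Snord22 lay below the median in AngII 4 h, and its interval held it in AngII 24 h. The interval of Snora73b with IgG held it in AngII 4 h and lay above it in AngII 24 h. By these reads, from the tables of single libraries, the abundant snoRNAs were thus lower in AngII 24 h than in Sham with anti-EZH2 and not with IgG. The series table differed with anti-EZH2. There Snora73b was at 1002 FPKM in Sham and 2272 in AngII 24 h, and Snord22 at 15142 and 14799. With IgG, Snora73b was there at 1216 and 4844 and Snord22 at 22843 and 36881. Snora73a had no series entry. The other 32 together were at 0.613-fold (0.365 to 1.02) and 0.873-fold (0.523 to 1.44) with IgG and at 0.683-fold (0.508 to 0.916) and 0.293-fold (0.179 to 0.462) with anti-EZH2.

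Other genes of the same pathway are given for comparison. Of 14 genes listed as other lncRNA hosts 12 were found, and 3 of 7 with a ratio in Sham were above 2 and 1 below 0.5, with a median of 1.14 in Sham, 0.611 in AngII 4 h and 0.803 in AngII 24 h. The list also holds Mir17hg, a host of microRNAs, and Cwf19l1, which GENCODE M21 types as protein coding. The entry named Snhg7 had the highest ratio in Sham, 280, and was at 0.766, 164 and 32.0 FPKM in IgG and at 214, 92.5 and 25.7 in anti-EZH2, but it covers only 139 bases (chr2:26637847-26637985) that GENCODE M21 gives as the snoRNA Snora43. Without these 3, a choice made after seeing the data, 2 of 6 were above 2 and 1 below 0.5 in Sham, with medians of 1.07, 0.658 and 0.573. Snhg4 was then highest in Sham at 5.77, from only 0.234 FPKM with IgG and 1.35 with anti-EZH2, and was at 0.194 in AngII 4 h. Rian, a maternally expressed host of many snoRNAs, had the lowest ratio in Sham, 0.200, from 2.53 FPKM with IgG and 0.505 with anti-EZH2. For the 25 protein-coding hosts, most of them genes of ribosomal proteins and translation factors, the medians were 0.772, 0.941 and 0.621, with 0 above 2 and 3 below 0.5 in Sham. Ncl, the gene of nucleolin, was highest at 1.66 and Rpl13a lowest at 0.336. The 82 of 84 genes of cytosolic ribosomal proteins with a ratio had medians of 0.738, 0.889 and 0.583, with 2 above 2 and 7 below 0.5 in Sham, from 2.19 for Rps27l to 0.336 for Rpl13a.

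Of the proteins that bind C/D snoRNAs 4 of 5 were found, with medians of 1.10, 1.83 and 1.42 and no ratio above 2 or below 0.5 in Sham, from Nop56 at 1.25 to Nop58 at 0.665. In AngII 4 h, however, 2 of 4 were above 2 and 1 was below 0.5, Nop58 at 0.478. Above 2 were Nop56 at 3.12 and Fbl, named after its values were seen, at 15.8. The ratio of Fbl rests on 0.199 FPKM with IgG and 3.14 with anti-EZH2, and its other libraries lay between 1.23 and 1.86. The 6 genes of the H/ACA particle and its assembly had medians of 0.607, 0.757 and 0.621, with 0 of 5 above 2 and 1 below 0.5 in Sham, from Shq1 at 1.52 to Nop10 at 0.438. For the 3 genes of intron debranching and trimming the medians were 0.484, 0.615 and 0.785, with 0 of 2 above 2 and 1 below 0.5 in Sham, from Exosc10 at 0.694 to Xrn2 at 0.273. The 10 genes of nonsense-mediated decay had medians of 0.631, 0.913 and 0.986, with 1 above 2 and 3 below 0.5 in Sham, from Upf3b at 2.05 to Upf3a at 0.320. The median of the members, 0.564, 1.32 and 0.455, lay between those of these lists in Sham and AngII 4 h and below all of them in AngII 24 h, and none of these differences was tested. For the remaining lists the counts above 2 and below 0.5 in AngII 4 h were 1 and 2 of 8 other lncRNA hosts, 2 and 1 of 25 protein-coding hosts, 0 and 1 of 82 genes of ribosomal proteins, 1 and 1 of 6 of the H/ACA particle, 0 and 0 of 3 of debranching and trimming, and 1 and 3 of 10 of nonsense-mediated decay. In AngII 24 h they were, in this order, 1 and 2 of 5, 0 and 4 of 25, 1 and 21 of 82, 0 and 0 of 4, 0 and 1 of 2, and 1 and 3 of 9, with 0 and 0 of 4 for the proteins of C/D snoRNAs.

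The genes nearest to the mean of 3 hosts over the 6 libraries were taken from 4845 genes that passed 1 FPKM in each library. Their distance was the root mean square difference of centred log2 FPKM from the mean of Gas5, 1500012F01Rik and Snhg11, the 3 members above 0 throughout. The mean itself was at 0.52, 0.28 and 0.54 in IgG and at -0.84, -0.17 and -0.32 in anti-EZH2, so that it was highest with IgG and lowest in Sham anti-EZH2. The hosts themselves lay far from it, Gas5 at 0.62, 1500012F01Rik at 0.69 and Snhg11 at 0.52, and Gas5 was highest in AngII 4 h anti-EZH2 and lowest in AngII 4 h IgG. The genes below are therefore near the mean and not near any of the 3 hosts. The nearest were Stt3b (0.10), Smpx (0.11), Rpl37 (0.13), Entpd5 (0.13) and Lyrm5 (0.14).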

How the data were processed

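RIP-seq libraries of mouse left ventricle, 1 for each of 3 groups with anti-EZH2 and with IgG, were grouped by their labels. Per the study, stranded libraries were mapped with TopHat2 to mm10. The authors deposited FPKM both for the series and, with an interval, for each library. The FPKM program and its annotation are not given in the sources used here. Values of single libraries were used except where the series table is named, and 787 values below 0.001 were set to 0.

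Names and coordinates were taken from GENCODE M21 (GRCm38). Depth was fitted on 14145 genes with 1 transcript of at least 400 nt, with fragments of 200 nt (SD 80 nt, minimum 34 nt), as the scale at which low FPKM gave whole reads. For Sham, AngII 4 h and AngII 24 h in this order, 4328180, 5252201 and 3815788 fragments were found with IgG and 5701032, 7925990 and 4761902 with anti-EZH2. With this model 39.2% of 1491 low values of genes of 60 to 210 nt were whole to within 0.1 reads, against 9.3% with a mean of 180 nt and 12.4% with 220 nt, and for the members' snoRNAs it was 81.0% of 42 values. For 3.28% of values above 0 the FPKM lay outside the interval given in its own row, so that ratios of snoRNAs have exact Clopper-Pearson intervals from reads in its place. For hosts with several transcripts the reads are unknown, and the intervals of the tables were used. snoRNAs over 110 nt with ACA near the 3′ end were read as H/ACA, and those with a C box (RTGATGA, at most 2 mismatches, in the first 20 bases) and CTGA in the last 16 bases as C/D. Overlapping snoRNA genes were counted as 1 locus.

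No test between groups was made, since each had 1 library for each antibody, and the antibodies were not tested over the 3 groups, which differ in treatment. The genes named were all members, each snoRNA within a member on the same strand, and the marker lists. Named as well were 7 lists of related genes, with the highest and lowest Sham ratio of each. The last were the 5 genes nearest to the mean of Gas5, 1500012F01Rik and Snhg11. The members and lists were chosen with earlier results of these data known. Alternatives were the series table, pseudocounts of 0.1 and 1, an FPKM above 1 in both libraries, scaling to the median protein-coding ratio, thresholds of 1.5-fold and 4-fold, intervals apart, fragments of 180 and 220 nt, and leaving out snoRNAs with fewer than 3 reads. Scaling of the snoRNA ratios, leaving out the 3 abundant snoRNAs, leaving out Gas5 from the sum, leaving out 3 of the other hosts, and leaving out snoRNA loci at 0 in 1 library were chosen after seeing the data. Calculations were made in Python 3.11.15 with scipy 1.17.1, numpy 2.4.6, biopython 1.88, pandas 2.3.3 and matplotlib 3.10.9, and the procedures were tested on simulated data.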

Additional observations from a re-analysis of the deposited data

Results flagged for a closer look

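Gas5 passed 2-fold in opposite directions in different groups, with an anti-EZH2/IgG ratio of 0.447 in Sham and 2.81 in AngII 4 h, and the difference between the groups was not tested. The same 4 values give the fold of AngII 4 h over Sham, which was 0.379 with IgG and 2.38 with anti-EZH2, and this difference was not tested either. The intervals of all these values overlapped. After division by the median of protein-coding genes the Sham ratio was 0.561, within 2-fold, and in the series table both ratios were above 2, 916 in Sham and 20.04 in AngII 4 h.

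For Snora61, in an intron of Snhg12, the ratio of reads was 4.56 in Sham, from 1 and 6 reads, and 0.267 in AngII 24 h, from 6 and 2 reads. Both exact intervals held 1, the second value rests on the library that stood apart, and the difference was not tested.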

How the results depend on the processing

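No paired analysis was possible within a group because each had 1 library for each antibody from pooled mice, and the antibodies were not tested as pairs over the 3 groups, which differ in treatment. Of 112 counts of members under an alternative, 46 stayed within 1.5 times the value of the report and 66 did not, as did 10 and 5 of 15 medians. With 3 to 7 members in most counts, 1 member is enough for such a change. Of 66 ratios of single members under an alternative other than the limit of 1 FPKM, 20 had an interval above 0 with an upper bound, and 18 of these stayed within it, as did 22 of 24 such folds among 74. The other intervals are too wide to serve as a check. The cause of the changes below was not tested, except where fewer members had a value.

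In the series table the members above 2 were 2 in Sham, 4 in AngII 4 h and 1 in AngII 24 h, those below 0.5 were 1, 0 and 1, beside 16.2%, 12% and 16.9% of all entries, and the medians were 1.34, 3.21 and 0.803. With IgG 3 were over 2-fold higher and 1 lower in AngII 4 h than in Sham, beside 11.9% and 23% of all entries, and 2 higher and 2 lower in AngII 24 h, beside 33.3% and 14.3%. With anti-EZH2, 0 were higher in AngII 4 h and 2 lower in AngII 24 h, beside 13.4% and 14.8%. Ratios past 2-fold that lay on the other side of 1 there were those of Gas5 (916) and 1500012F01Rik (236) in Sham and of 1500012F01Rik in AngII 4 h (3.21), and so did the folds of AngII 4 h over Sham of Gas5 with IgG (39.4) and with anti-EZH2 (0.862) and of Snhg12 with anti-EZH2 (1.12). Folds that were within 2-fold in the report and passed it there were those of 1500012F01Rik in AngII 4 h with IgG (24.7) and anti-EZH2 (0.336), and in AngII 24 h those of Gas5 (0.354), 1500012F01Rik (0.356) and Snhg8 (2.06) with IgG and of Gas5 (0.00241) and 1500012F01Rik (0.000655) with anti-EZH2.

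From here on, the share of all genes at the same setting stands in brackets. With an FPKM above 1 in both libraries, where 3, 1 and 2 members had a ratio, 1 was below 0.5 in Sham (14.2%), 1 was above 2 (7.31%) and 0 below 0.5 (8.04%) in AngII 4 h, with a median of 2.81, and 1 was below 0.5 in AngII 24 h (26.7%), with a median of 0.707. From Sham, 0 were higher with IgG at 4 h (12.4%) and 24 h (15.1%), and 0 were lower with anti-EZH2 at 4 h (7.64%) and 24 h (15.7%). Divided by the median of protein-coding genes, 1 was below 0.5 in Sham (16%) and 0 in AngII 24 h (18.4%), 0 were higher in AngII 4 h with IgG (15.5%) and 0 with anti-EZH2 (13.4%), and 1 was lower in AngII 24 h with IgG (20%).

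Past 4-fold, 1 of 7 was below in Sham (6.8%), 0 of 5 above in AngII 4 h (4.97%) and 0 of 5 below in AngII 24 h (11.4%), and from Sham 0 were higher (6.43%) or lower (5.16%) in AngII 4 h with IgG, 0 higher in AngII 24 h with IgG (7.33%), 0 higher (6.7%) or lower (5.32%) in AngII 4 h with anti-EZH2 and 0 lower in AngII 24 h with anti-EZH2 (8.94%). Past 1.5-fold, 5 of 7 were below in Sham (34.3%) and 2 of 5 in AngII 4 h (29.4%), with IgG 2 of 5 were higher in AngII 4 h (32.7%) and 2 of 5 lower in AngII 24 h (22.9%), and with anti-EZH2 2 of 4 were higher in AngII 4 h (36.8%) and 1 of 5 in AngII 24 h (25.4%). With the added condition that intervals lay apart, each of these counts was 0.

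With a pseudocount, which gave all 9 members a ratio, the share is that of the 22183 genes above 0 in at least 1 library. With 1 added, 1 was above 2 (4.31%) and 3 below 0.5 (3.48%) in AngII 4 h and 2 below 0.5 in AngII 24 h (10.4%). From Sham, with IgG 0 were higher in AngII 4 h (5.7%), and 2 higher (6.73%) and 1 lower (3.72%) in AngII 24 h, and with anti-EZH2 3 were higher in AngII 4 h (5.94%) and 0 lower in AngII 24 h (7.16%). With 0.1 added, 3 were below 0.5 in AngII 4 h (13.7%), with IgG 2 were higher (19.2%) and 4 lower (12.7%) in AngII 4 h, and 3 higher (20%) and 2 lower (13.2%) in AngII 24 h, and with anti-EZH2 3 were higher (20.8%) and 4 lower (13.7%) in AngII 4 h and 2 lower in AngII 24 h (22.6%).

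The reads recovered for the snoRNAs depended on fragment length. With a mean of 180 nt they were 2244, 2790 and 2597 in IgG and 2015, 3610 and 1032 in anti-EZH2, and with 220 nt they were 1176, 1486 and 1392 in IgG and 1057, 1901 and 556 in anti-EZH2, while the ratios over all 35 stayed within their exact intervals. With alternatives chosen after seeing the data, these ratios were 0.853, 0.932 and 0.473 after division by the median of protein-coding genes and 1.91, 2.13 and 0.641 without Snord22, Snora73a and Snora73b. Without loci at 0 reads in 1 library, also chosen after seeing the data, the snoRNA loci above 2 in Sham were 2 of 9, against 4 of 11, and the other counts of such loci did not change. The summed FPKM of the hosts was higher with anti-EZH2 in AngII 4 h, by 1.28 times, and without Gas5, also left out after seeing the data, it was at 0.563 times, and the ratio in AngII 24 h went from 0.550 to 0.311. The summed FPKM of the snoRNAs changed by less than 1.5 times in all 6 libraries when those with fewer than 3 reads were left out. The median ratios of the other lncRNA hosts changed by less than 1.5 times without Snhg7, Mir17hg and Cwf19l1, left out after seeing the data. At 500 nt a single read was worth between 0.424 and 0.882 FPKM over the libraries, which limits the low host values.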

Other observations

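Markers of the other cell types of the heart, all found, were summed as well. The 4 fibroblast markers summed to 64.5, 42.9 and 53.8 FPKM with IgG and to 55.7, 48.1 and 42.2 with anti-EZH2, and the 3 endothelial markers to 21.9, 16.5 and 15.7 and to 17.7, 17.8 and 8.65, in the order Sham, AngII 4 h, AngII 24 h. The 3 macrophage markers summed to 4.44, 4.69 and 3.51 with IgG and to 3.58, 2.11 and 1.37 with anti-EZH2, and Cd68 was at 0 in AngII 24 h anti-EZH2. The 4 erythroid markers, with Hbb-bs as the most abundant in Sham IgG, summed to 634, 440 and 1020 with IgG and to 502, 414 and 549 with anti-EZH2, and were highest in AngII 24 h with each antibody. The part of any of these cells in the values of the host genes was not tested.

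The entry named Snhg7, which in GENCODE M21 is the snoRNA Snora43, was far apart between IgG libraries, with 0.766 FPKM in Sham and 164 in AngII 4 h, and in the opposite order with anti-EZH2, with 214 in Sham and 92.5 in AngII 4 h. In Snhg5 the snoRNAs Snord50a and Snord50b have 71 of 72 bases in common and are shown for the base that differs, in capitals, with sequences from GENCODE M21 transcripts on GRCm38. Snord50a lies at chr9:88521529-88521600 and Snord50b at chr9:88521797-88521868, both on the - strand in introns of Snhg5. Over the 6 libraries Snord50a was given 4.35 reads and Snord50b 0.499 reads before rounding.
Snord50a: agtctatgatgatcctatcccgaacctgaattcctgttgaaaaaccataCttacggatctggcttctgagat
Snord50b: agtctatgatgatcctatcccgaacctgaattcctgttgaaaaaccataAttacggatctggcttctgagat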
